A study of Rattus norvegicus and Mus musculus with 251 samples.

Results

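Oligodendrocytes are the glia that wrap axons of the central nervous system in myelin, a stack of lipid-rich membrane held together by a small set of abundant proteins. The 30 genes described here are commonly used markers of these cells, chosen by name with earlier results of these data known. They were looked up in the mouse raw count table, which holds 46078 gene rows. All 30 symbols matched a row and all 30 passed the filter on low counts. They comprise 12 proteins of the myelin sheath, its compaction or its adhesion to the axon, 3 junction or receptor proteins, 3 enzymes of myelin lipid synthesis, 5 transcription factors of the lineage, 4 genes of metabolism, transport or stress, and 3 genes whose role is not given here.

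Female and male C57BL/6J mice, an inbred strain, drank either a saline or a morphine solution. Their ages, the morphine dose and the length of drinking were not given in the sources used here. RNA came from 0.5 mm punches. Of the libraries, 30 were from prefrontal cortex (PFC) and 32 from nucleus accumbens (NAc), a part of the ventral striatum that contains fibre bundles. In PFC, 6 libraries came from saline mice, 8 from mice labelled as chronic morphine, 9 from mice 24 h after morphine and 7 from mice 2 weeks after morphine. In NAc the same groups held 7, 8, 9 and 8 libraries. Each group held 3 or 4 libraries labelled female and 3 to 5 labelled male. The labels do not say that each library is a separate animal, so p-values measure the spread between these libraries, which may in part be technical.

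Myelin basic protein helps hold the layers of the sheath together, and galactolipids made by the cell give the membrane its composition. Transcription factors of the SOX and OLIG families set the lineage, and MYRF drives the switch to myelination. Oligodendrocytes continue to form in the adult forebrain, and white matter holds far more of them than cortical grey matter does.

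Library totals ran from 5182601 to 41532464 counts in PFC and from 22387525 to 43963295 in NAc. One library stood apart. PFC 2 weeks replicate 10 had the lowest total, counts in 10563 genes, 21.1% of its reads not aligned and 6 of the 30 members at 0 counts. The NAc punches also varied in makeup: 5 libraries (saline replicates 2 and 6, 24 h replicates 23 and 24, chronic replicate 25) had less than 5.5 log2 CPM of the striatal gene Drd1 or more than 8 log2 CPM of the cortical gene Slc17a7, where log2 CPM is the logarithm of CPM, a count scaled to the library's total, with a prior count of 2. The chronic morphine libraries numbered 27 were labelled female in both regions, yet their Xist and Y-linked counts matched the libraries labelled male, and values without them are given beside the comparisons of sex and of the chronic group. The other 60 libraries matched their label. The libraries carry the cell type label neuron, but the 30 members together took 0.330% to 0.941% of all counts in PFC and 0.435% to 1.41% in NAc. Pmp2, a myelin protein of Schwann cells, the myelinating cells of peripheral nerve, had 0 counts in all 62 libraries.

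Levels of different genes were compared as RPKM, the CPM divided by the length of a gene's exons. Mbp, encoding myelin basic protein, was the most abundant member in both regions, with a median of 326 RPKM in PFC and 414 in NAc. It supplied 40.2% to 49.1% of all member counts in PFC libraries and 36.3% to 43.9% in NAc libraries. Mobp, a compact myelin protein, followed at 126.4 RPKM in PFC and 202.1 in NAc. Cnp, the cytoplasmic phosphodiesterase of the inner myelin loops, was at 116.4 RPKM in PFC and 167.8 in NAc. Mal, a proteolipid that sorts myelin components, was at 92.4 RPKM in PFC and 170.6 in NAc, below Cnp in PFC and slightly above it in NAc. Cldn11, the claudin that seals the layers of myelin by tight junctions, came next in both, at 90.5 RPKM in PFC and 135.8 in NAc. The members of lowest level were Aspa, the enzyme that cleaves N-acetylaspartate, at 1.87 RPKM in PFC and 3.22 in NAc, and Trf, encoding transferrin, at 3.09 in PFC and 3.97 in NAc. The span of Trf overlaps that of a gene of the same strand, Gm20425, that had 0 counts in every library, so the level of Trf is uncertain. Mobp likewise overlaps a gene of its own strand, and Mbp, Mog, Cnp, Cryab, Nkx6-2, Olig1, Pllp, Ermn, Plekhh1, Tspan2 and Bcas1 overlap genes of the other strand. Whether the counting used the strand is not given in the sources used here.

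Most members were higher in NAc than in PFC. Averaged over treatments and sexes, 27 of 30 were called higher in NAc (edgeR adjusted p under 0.05) and none lower, against 66.2% of all 19266 genes called in either direction, 36.5% called higher and 29.7% called lower. The median log2 difference, NAc minus PFC, was 0.56 over the members and 0.07 over all genes tested. Since punches are bulk tissue, more oligodendrocytes and more of this RNA per oligodendrocyte cannot be told apart. The plot of region differences shows each member with its interval.

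**Figure D1:**
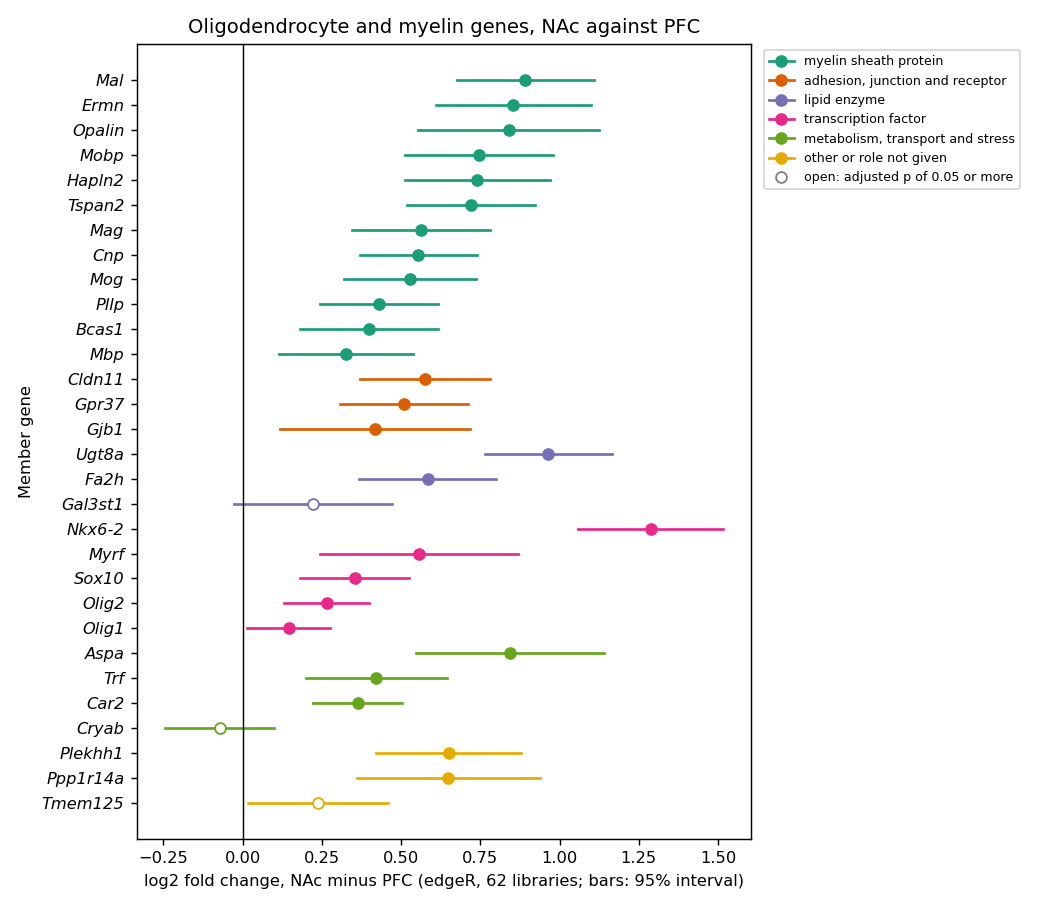
Log2 fold change of NAc against PFC for the 30 members (edgeR, 30 PFC and 32 NAc libraries, averaged over treatments and sexes), with horizontal bars for 95% intervals, colours for roles and open circles for genes not called. Nkx6-2 lies farthest to the right at 1.29, and Cryab alone lies left of 0, at -0.07.

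The member with the largest region difference was Nkx6-2 (chromosome 7, 139579376 to 139582797, GRCm38, as for all positions here), a homeobox transcription factor of mature oligodendrocytes. PFC libraries ran from 2.11 to 4.66 log2 CPM with a median of 3.76, and NAc libraries from 4.01 to 5.78 with a median of 5.01. The regions overlapped only in part: 25 of 32 NAc libraries lay above the highest PFC library and 21 of 30 PFC libraries below the lowest NAc library. The fold was 2.44 (95% interval 2.08 to 2.86; log2 difference 1.29 ± 0.11 SE, edgeR adjusted p = 1.52e-14).

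All 5 transcription factors were called higher in NAc, but the other 4 differed by less. Myrf, the membrane-bound activator of myelin genes, had a log2 difference of 0.56 ± 0.16 (SE, edgeR adjusted p = 0.00165). Sox10, a SoxE factor needed for oligodendrocyte differentiation, differed by 0.35 ± 0.09 (SE, edgeR adjusted p = 0.000291). Olig2, which specifies the lineage, differed by 0.27 ± 0.07 (SE, edgeR adjusted p = 0.000516), and its neighbour Olig1, 41094 bases away on chromosome 16, by 0.15 ± 0.06 (SE, edgeR adjusted p = 0.045). Olig1 was the call nearest the threshold: it was lost when any of 18 of the 62 single libraries was left out. Sox10, Olig1 and Olig2 are also expressed by oligodendrocyte precursors, a further cell type of these punches.

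Among the lipid enzymes, Ugt8a (chromosome 3, 125865271 to 125938619), which makes galactosylceramide, the characteristic lipid of myelin, ran from 4.43 to 6.06 log2 CPM in PFC (median 5.37) and from 5.16 to 7.07 in NAc (median 6.25). Of the 32 NAc libraries, 23 lay above the highest PFC library, and the fold was 1.95 (95% interval 1.70 to 2.24, edgeR adjusted p = 3.64e-12). Fa2h, which hydroxylates the fatty acids of myelin galactolipids, differed by 0.58 ± 0.11 on the log2 scale (SE, edgeR adjusted p = 4.61e-06). Gal3st1, which adds the sulfate that turns galactosylceramide into sulfatide, was not called by edgeR. Its difference was 0.22 ± 0.12 (SE, 95% interval -0.03 to 0.47, edgeR adjusted p = 0.112), and no NAc library exceeded the highest PFC library. DESeq2 called Gal3st1 higher in NAc, at 0.26 (DESeq2 adjusted p = 0.0342). The 3 enzymes act in 1 pathway, and their differences spanned 0.22 to 0.97.

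All 12 sheath proteins were called higher in NAc, with a median log2 difference of 0.64. Mal (chromosome 2, 127633226 to 127656695) ran from 6.93 to 8.52 log2 CPM in PFC (median 8.0) and from 7.60 to 9.69 in NAc (median 8.89). It had the most NAc libraries above the highest PFC library of any member, 26 of 32, and a fold of 1.86 (95% interval 1.60 to 2.16, edgeR adjusted p = 3.27e-10). Ermn, a cytoskeletal protein of mature myelin, and Opalin, a sialylated membrane glycoprotein of myelin, followed with log2 differences of 0.85 and 0.84. Mobp and Hapln2, a link protein of the matrix at nodes of Ranvier, both differed by 0.74, and the tetraspanin Tspan2 by 0.72. Mag, an adhesion protein of the inner myelin membrane facing the axon, differed by 0.56, Cnp by 0.55 and Mog, an immunoglobulin-like protein of the outermost lamella, by 0.53. The smallest differences were those of Pllp (plasmolipin) at 0.43, Bcas1 at 0.40 and Mbp at 0.33 ± 0.11 (SE, edgeR adjusted p = 0.00582). The most abundant member thus had the smallest difference of the sheath proteins, 1.25-fold (95% interval 1.08 to 1.45), with PFC at 10.63 to 12.10 log2 CPM and NAc at 10.72 to 12.44.

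The junction and receptor proteins were all called higher in NAc, Cldn11 by 0.58, the orphan receptor Gpr37 by 0.51 and the gap junction protein Gjb1 (connexin 32) by 0.42 ± 0.15 (SE, edgeR adjusted p = 0.0125). Of the metabolic genes, Aspa differed by 0.84 ± 0.15 (SE, edgeR adjusted p = 1.84e-06), Trf by 0.42 and the carbonic anhydrase Car2 by 0.36. Cryab (chromosome 9, 50751325 to 50756636), encoding the small heat shock protein alpha B-crystallin, had the only negative estimate, -0.07 ± 0.09 (SE, 95% interval -0.25 to 0.10, edgeR adjusted p = 0.47). Its PFC libraries ran from 6.02 to 6.96 log2 CPM and its NAc libraries from 5.45 to 7.10, so that the NAc range enclosed the PFC range. Of the 3 genes with no role given, Plekhh1 and Ppp1r14a each differed by 0.65 and Tmem125 by 0.24 (edgeR adjusted p = 0.0523, not called). DESeq2 called Tmem125 higher in NAc, at 0.27 (DESeq2 adjusted p = 0.0221).

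The region difference was smaller in the saline libraries alone, where 6 PFC and 7 NAc libraries called 17 of 30 members and the median was 0.43. With these fewer libraries the share of all genes called in either direction also fell, from 66.2% to 47%. Mbp was at 0.10 there (edgeR adjusted p = 0.648), while Nkx6-2 stayed at 1.16 (1.9e-05) and Ugt8a at 0.80 (2.56e-05). Without the 5 NAc libraries of different makeup 25 members were called, with Olig1 at 0.09 (edgeR adjusted p = 0.237) and Gjb1 at 0.31 (0.0574) lost.

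Genes of other cell types also differed between the regions. Of 52 further oligodendrocyte genes, not members, 39 were called higher in NAc and 5 lower, with a median log2 difference of 0.43. This list too was chosen with earlier results of these data known. The 3 largest differences were those of Klk6, a secreted protease, at 1.31 ± 0.20 (SE, edgeR adjusted p = 8.01e-08), the tubulin-binding Tppp3 at 1.10 ± 0.11 and the ephrin Efnb3 at 1.10 ± 0.07. Of 10 precursor markers, which include Olig2 and Sox10, 9 were called higher, among them Pdgfra at 0.76 and Cspg4 at 0.75. Of 8 markers of newly formed oligodendrocytes, which include Bcas1, 6 were called higher, such as Gpr17 at 0.77, and Bmp4 was lower at -0.85. Astrocyte markers were mostly lower in NAc (8 of 10), as were all 10 endothelial and mural markers and 5 of 6 general neuronal markers. Higher were 9 of 10 microglia markers, all 6 of immature cells and 3 of 6 of choroid plexus. Over all genes tested, 36.5% were called higher and 29.7% lower. The summed CPM of 6 cortical neuron markers had a median of 2846 in PFC and 56.75 in NAc. That of 8 striatal neuron markers had a median of 207.5 in PFC and 3291 in NAc. The part of these differences in the members' values was not tested.

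The next comparisons asked whether the members differed from saline during chronic morphine, 24 h after it and 2 weeks after it. No member was called in any of these, in either region, by edgeR or by DESeq2. The plot of member means shows how much libraries of 1 group differed from each other.

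**Figure D2:**
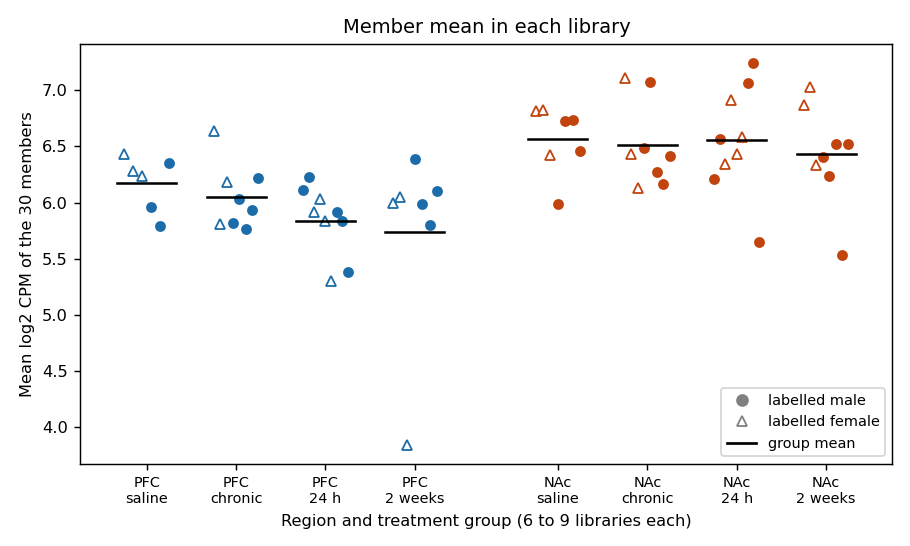
Mean log2 CPM of the 30 members in each library (points), by region and treatment, with open triangles for libraries labelled female, filled circles for those labelled male and a horizontal line at each group mean. NAc group means lie at 6.43 to 6.57 and PFC group means at 5.74 to 6.18, with PFC 2 weeks replicate 10 far below the others at 3.85.

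In PFC, the mean over the 30 members was 6.18 ± 0.25 log2 CPM in saline libraries (SD, n = 6), 6.05 ± 0.29 under chronic morphine (n = 8), 5.84 ± 0.31 at 24 h (n = 9) and 5.74 ± 0.85 at 2 weeks (n = 7). The groups overlapped: saline libraries ran from 5.79 to 6.44, chronic from 5.77 to 6.63, 24 h from 5.30 to 6.23 and 2 weeks from 3.85 to 6.39. The lowest saline library lay below the median of the 24 h group, 5.91.

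The largest shift in estimates was in PFC at 24 h. Of the 30 members, 29 had negative estimates, with a median log2 difference of -0.32 against 0.01 over all genes, but 0 were called (edgeR, background 0.0779% of 17966 genes; DESeq2 0). At an unadjusted p under 0.05 stood 8 members, namely Mag, Cnp, Mal, Ugt8a, Olig1, Olig2, Tspan2 and Pllp, beside 545 of all 17966 genes tested. Members vary together between libraries, as described further on, so the count of negative estimates is not a count of independent results. The median ranged from -0.40 to -0.25 when each library was left out in turn.

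Pllp (chromosome 8, 94674894 to 94696278), a tetraspan protein of myelin, had the smallest p. Its saline libraries ran from 5.73 to 6.44 log2 CPM with a median of 6.22, and its 24 h libraries from 5.35 to 6.17 with a median of 5.71. The 2 groups overlapped, and the log2 difference was -0.48 ± 0.14 (SE, edgeR adjusted p = 0.579). Ugt8a was at 5.28, 5.47 and 5.66 (lowest, median, highest) in saline libraries and at 4.43, 5.06 and 5.51 at 24 h, a log2 difference of -0.45 ± 0.17 (SE, unadjusted p = 0.0109, edgeR adjusted p = 1). Olig2 differed by -0.32 ± 0.11 and Olig1 by -0.27 ± 0.10, both with an edgeR adjusted p of 1. Over all 30 members the 95% intervals reached from -1.16 at the lowest to 0.64 at the highest.

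Under chronic morphine in PFC the members' median was -0.07, 21 of 30 estimates were negative and 0 members were called (background 0.417% of genes; DESeq2 0), with 0 at an unadjusted p under 0.05. Opalin had the lowest estimate, -0.54 ± 0.34, and Gal3st1 the highest, 0.21 ± 0.32 (SE, edgeR adjusted p = 0.767 and 0.954). Without the chronic library numbered 27 the median was -0.04. At 2 weeks all 30 estimates were negative with a median of -0.23, and 0 were called (background 0.00557%; DESeq2 0) with 0 at an unadjusted p under 0.05. Without PFC 2 weeks replicate 10, the library with few counts, 27 were negative and the median was -0.12. From chronic morphine to 2 weeks, a comparison without the saline libraries, the median was -0.18, 0 members were called (background 0.813%; DESeq2 0), and Fa2h alone had an unadjusted p under 0.05, with -0.51 ± 0.20 (SE, edgeR adjusted p = 0.248). The median of that comparison was -0.03 without replicate 10 and -0.19 without chronic replicate 27.

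**Figure D3:**
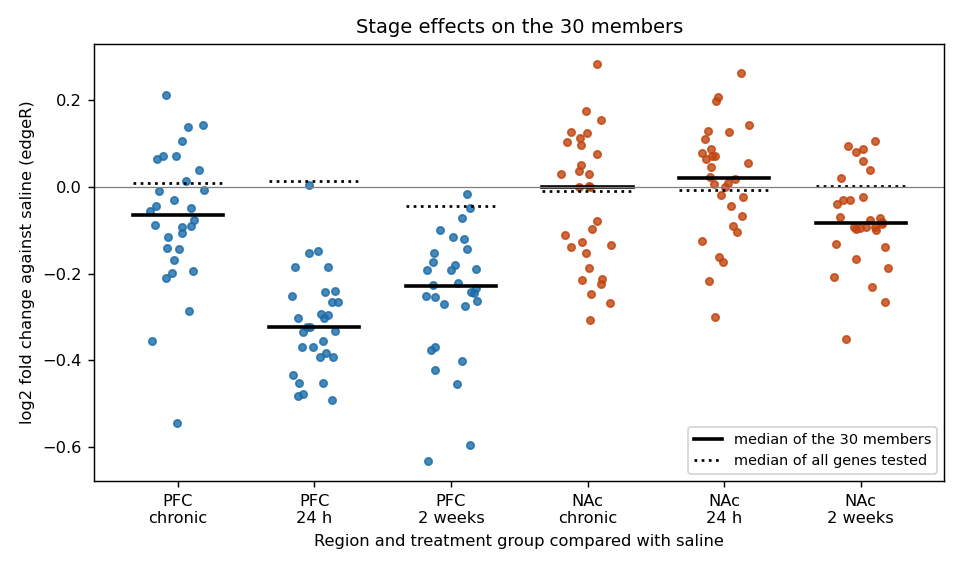
Log2 fold changes of the 30 members against saline in each region and treatment group (points, edgeR, 6 to 9 libraries per group), with a solid line at the members' median and a dotted line at the median of all genes tested. PFC at 24 h has the lowest median, -0.32, and in NAc the medians lie at -0.08 to 0.02.

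Values by group are given for 7 members, 4 of them sheath or junction proteins, 2 transcription factors and 1 a metabolic enzyme. Mbp in PFC ran from 11.11 to 12 log2 CPM in saline libraries (median 11.62), from 11 to 12.10 under chronic morphine (11.32), from 10.63 to 11.72 at 24 h (11.36) and from 11.02 to 12.07 at 2 weeks (11.46). In NAc its medians were 11.89 in saline libraries, 11.72 under chronic morphine, 11.79 at 24 h and 11.75 at 2 weeks, in ranges of 11.13 to 12.05, 11.09 to 12.44, 10.72 to 12.42 and 10.85 to 12.26. Every pair of groups within a region overlapped for Mbp.

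Mog in PFC had medians of 6.06 in saline libraries (5.58 to 6.60), 5.91 under chronic morphine (5.70 to 6.84), 5.89 at 24 h (5.22 to 6.19) and 5.98 at 2 weeks (5.78 to 6.38). In NAc its medians were 6.67 (5.89 to 6.78), 6.41 (6.10 to 7.34), 6.47 (5.30 to 7.25) and 6.28 (5.32 to 6.93) in the same order. In NAc the 24 h and 2 weeks groups of Mog reached both lower and higher than the saline group, and the chronic group reached higher. Cnp in PFC had medians of 8.92 (8.59 to 9.15), 8.78 (8.38 to 9.29), 8.71 (8.03 to 8.90) and 8.70 (7.68 to 9.17), and in NAc of 9.44 (8.66 to 9.53), 9.17 (8.73 to 9.85), 9.20 (8.17 to 9.87) and 9.20 (8.396 to 9.73).

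Cldn11 in PFC had medians of 7.53 (7.27 to 7.89), 7.42 (7.04 to 8.04), 7.32 (6.58 to 7.62) and 7.28 (6.27 to 7.73), and in NAc of 8.09 (7.30 to 8.16), 7.90 (7.04 to 8.66), 7.99 (6.79 to 8.54) and 7.86 (6.95 to 8.27). For Cldn11 too, each treated group overlapped the saline group of its region. The transcription factor Sox10 in PFC had medians of 6.15 (5.90 to 6.28), 6.04 (5.34 to 6.404), 5.81 (5.23 to 6.26) and 5.92 (5.57 to 6.45), and in NAc of 6.33 (5.75 to 6.69), 6.09 (5.82 to 6.61), 6.46 (5.67 to 6.92) and 6.29 (5.52 to 6.75). Olig2 in PFC had medians of 5.38 (4.97 to 5.53), 5.21 (5.08 to 5.60), 4.93 (4.74 to 5.37) and 5.18 (4.74 to 5.45), and in NAc of 5.5 (5.09 to 5.72), 5.49 (5.10 to 5.94), 5.38 (4.98 to 6.22) and 5.19 (4.51 to 5.69). Aspa in PFC had medians of 3.82 (3.17 to 4.10), 3.48 (2.65 to 4.04), 3.34 (2.60 to 4.08) and 3.28, the last with 1 library at 0 counts and a highest of 3.77, and in NAc of 4.45 (3.68 to 4.73), 3.99 (3.79 to 5.01), 4.37 (3.44 to 5.15) and 4.12 (2.99 to 4.66). For 21 of the 30 members the lowest of the 8 group means was PFC at 24 h, and for 8 it was PFC at 2 weeks, the group that holds replicate 10.

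In NAc the estimates lay on both sides of 0. Under chronic morphine 16 of 30 were negative with a median of -0.0009, and 0 members were called (edgeR, background 1.69% of 18382 genes; DESeq2 0), with 0 at an unadjusted p under 0.05. The lowest estimate was that of Opalin, -0.31 ± 0.24, and the highest that of Mobp, 0.28 ± 0.25 (SE, edgeR adjusted p = 0.596 and 0.648). This median rested on single libraries: without chronic replicate 25, which had low Drd1, it was -0.18 with 25 negative estimates, and without chronic replicate 27 it was 0.09.

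At 24 h in NAc 12 estimates were negative, the median was 0.02 and 0 members were called (background 0.163%; DESeq2 0), with 0 at an unadjusted p under 0.05. At 2 weeks 23 were negative, the median was -0.08 and 0 were called (background 0.00544%; DESeq2 0), again with 0 at an unadjusted p under 0.05. When each library was left out in turn the negative estimates ran from 13 (without 2 weeks replicate 10, median 0.01) to 29, and the median was 0.05 with a striatal marker covariate and -0.01 without the 5 libraries of different makeup. Olig2 had the smallest p there, with -0.27 ± 0.16 (SE, edgeR adjusted p = 0.858). From chronic morphine to 2 weeks the median was -0.04 with 16 negative estimates, 0 called (background 1.89%; DESeq2 0) and 0 at an unadjusted p under 0.05. Its sign also rested on single libraries: without chronic replicate 25 it was 0.14 with 10 negative, without chronic replicate 27 it was -0.14 with 22 negative, and without the 5 libraries of different makeup it was 0.14. Over the 30 members and 3 comparisons with saline in NAc, the 95% intervals reached from -0.87 at the lowest to 0.80 at the highest.

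Whether a stage effect differed between NAc and PFC was tested directly, and 0 members were called (edgeR, background 0.0363%; DESeq2 0), with 0 at an unadjusted p under 0.05 and a smallest adjusted p of 0.988. The lower PFC estimates at 24 h are therefore not shown to differ from those in NAc.

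Sex made no called difference. In NAc, 29 of 30 members had lower estimates in males, with a median of -0.18 and 0 called (edgeR, background 0.0598%; DESeq2 0; 0 at an unadjusted p under 0.05). The member mean ran from 6.13 to 7.11 log2 CPM in the 13 libraries labelled female and from 5.54 to 7.24 in the 19 labelled male, so the female range lay within the male range. The largest single estimate was that of Tmem125, -0.33 ± 0.17 (SE, edgeR adjusted p = 0.922). Without chronic replicate 25, labelled female, the median was -0.10, and without chronic replicate 27, whose label and sex-linked counts disagree, it was -0.23. In PFC the median of males minus females was -0.03 (-0.09 without 2 weeks replicate 10 and -0.06 without chronic replicate 27) with 0 called (background 0.0334%; DESeq2 0) and 0 at an unadjusted p under 0.05. Whether stage effects differed by sex was also tested: 0 members were called in PFC (background 0%; DESeq2 0), where Mog and Cldn11 had an unadjusted p under 0.05, and 0 in NAc (background 0.0218%; DESeq2 0), where 0 members did. Without chronic replicate 27 of the region, 0 members were called by edgeR in either test.

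Although no member was called by stage, 3 other genes of oligodendrocytes were, from the same list of 52. The list held 1 called gene in PFC under chronic morphine (0.417% of all genes called), 1 in PFC at 24 h (0.0779%), 2 in PFC from chronic morphine to 2 weeks (0.813%), 1 in NAc under chronic morphine (1.69%) and 1 in NAc from chronic morphine to 2 weeks (1.89%), so nothing is read from these counts about the list. Galc, the lysosomal enzyme that breaks down galactosylceramide and is mutated in Krabbe disease, was lower under chronic morphine in NAc. Sox8, a SoxE factor related to Sox10, was lower in PFC under chronic morphine and at 24 h. Lgi3, a secreted leucine-rich protein, was lower in PFC at 2 weeks than under chronic morphine.

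Galc (chromosome 12, 98202294 to 98259459) ran from 4.70 to 4.82 log2 CPM in the 7 NAc saline libraries (median 4.81) and from 4.27 to 4.45 in the 8 chronic ones (median 4.35). The 2 groups did not overlap. The fold was 0.739 (95% interval 0.673 to 0.811; log2 difference -0.44 ± 0.07 SE, edgeR adjusted p = 0.00091), and Galc was called without each of the 32 libraries in turn and under each of 6 other settings. At 24 h its libraries ran from 4.42 to 5.10, and at 2 weeks from 4.65 to 4.93, above every chronic library. The rise from chronic morphine to 2 weeks was 0.42 ± 0.06 (SE, edgeR adjusted p = 0.000271).

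In PFC, Galc was at 4.48 to 4.86 in saline libraries (median 4.78) and at 4.01 to 4.77 under chronic morphine (median 4.21), with overlap. The difference of chronic from saline was -0.46 ± 0.12 (SE, edgeR adjusted p = 0.112, DESeq2 adjusted p = 0.0259), not called by edgeR with all libraries. Without PFC 2 weeks replicate 10 it was called, at -0.46 (edgeR adjusted p = 0.0405). From chronic morphine to 2 weeks Galc rose by 0.50 ± 0.12 (SE, edgeR adjusted p = 0.0395). That call was lost without chronic replicate 27 (adjusted p = 0.11), without 9 other single libraries and with no filter on low counts (adjusted p = 0.0781). For the other enzymes of the pathway the difference of chronic morphine from saline was not called in either region.

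Sox8 (chromosome 17, 25565892 to 25570686) lay between 6.02 and 6.18 log2 CPM in the 6 PFC saline libraries (median 6.06). It lay between 5.11 and 5.81 under chronic morphine (median 5.35) and between 5.24 and 5.75 at 24 h (median 5.39), below every saline library in both. The fold under chronic morphine was 0.64 (95% interval 0.541 to 0.756; log2 difference -0.65 ± 0.12 SE, edgeR adjusted p = 0.00432), called without each of the 30 libraries in turn. The fold at 24 h was 0.664 (95% interval 0.565 to 0.780, edgeR adjusted p = 0.0194), and this call was lost without any of 10 of the 30 libraries (adjusted p up to 0.0956). These 2 comparisons share the saline libraries. At 2 weeks Sox8 ran from 4.97 to 6.05 (median 5.84), with replicate 10 the lowest, and was not called against saline or against chronic morphine. Without replicate 10 the difference of 2 weeks from chronic morphine was called, at 0.41 (edgeR adjusted p = 0.0309). In NAc it was at 5.71 to 6.73 in saline libraries and at 5.31 to 6.39 under chronic morphine, with a log2 difference of -0.19 ± 0.14 (SE, edgeR adjusted p = 0.577). The difference between regions in its stage effects was not called (edgeR adjusted p = 0.985).

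**Figure D4:**
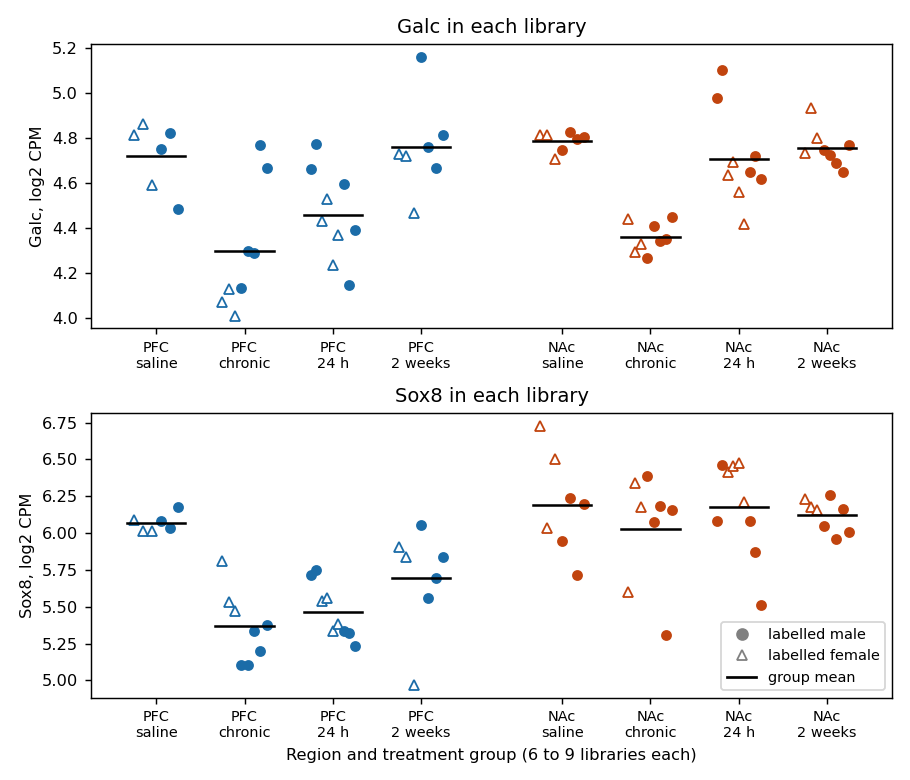
Log2 CPM of Galc and Sox8 in each library (points) by region and treatment, with open triangles for libraries labelled female, filled circles for those labelled male and a horizontal line at each group mean. Galc in NAc lies at 4.27 to 4.45 under chronic morphine, below all NAc saline libraries, and Sox8 in PFC lies below all PFC saline libraries under chronic morphine and at 24 h.

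Lgi3 (chromosome 14, 70530685 to 70538324) ran from 7.34 to 7.81 log2 CPM in PFC under chronic morphine (median 7.53) and from 6.81 to 7.37 at 2 weeks (median 7.20). The groups overlapped slightly, and the log2 difference was -0.43 ± 0.09 (SE, edgeR adjusted p = 0.0139; 0.0503 with sex as an additive term and 0.0445 without chronic replicate 27). Unlike Sox8, the SoxE factor among the members, Sox10, was not called against saline at any stage in PFC, nor in NAc. Its difference under chronic morphine in NAc was -0.21 ± 0.18 (SE, edgeR adjusted p = 0.624).

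A further gene moved with these groups, and also differed between libraries within them. Wdfy1, chosen after its values were seen, was at 4.78 log2 CPM or more in every PFC chronic library and at 5.24 or more in every NAc chronic library, and at 3.45 to 3.94 in 6 of the 7 NAc saline libraries. In PFC, 5 of the 6 saline libraries were at 3.06 to 3.63 and replicate 6 was at 4.99, above the lowest chronic library. The PFC 24 h replicates 16 and 17 were at 3.59 and 3.92, and the other PFC 24 h libraries at 4.76 to 5.16. At 2 weeks, PFC replicate 10 was at 5.32 and the other PFC libraries at 3.27 to 3.835. The NAc saline library numbered 6 had Wdfy1 at 5.66 and Galc at 4.79, within the range of the other saline libraries. The NAc 24 h replicates 16 and 17, with Wdfy1 at 4.26 and 3.96, had the highest Galc of their group, 4.98 and 5.10. The part of this difference between libraries in the Galc and Sox8 results was not tested. Egr2, an activity-regulated transcription factor that also drives peripheral myelination and was on the Schwann cell list, had PFC log2 differences from saline of -3.35 ± 0.33 in the chronic group (SE, edgeR adjusted p = 2.12e-07) and -1.75 ± 0.29 in the 24 h group (SE, adjusted p = 0.00256).

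The members varied together from library to library. After treatment and sex means were subtracted, each member was correlated with the mean of the other 29, as a description of libraries that share depth and tissue makeup. In NAc r ran from 0.82 for Nkx6-2 to 0.99 for Ermn with a median of 0.96 over 32 libraries. In PFC without replicate 10 it ran from 0.56 for Myrf to 0.93 for Mbp with a median of 0.79 over 29 libraries. Over all 13012 genes of at least 1 log2 CPM, the median r with the member mean was -0.04 in NAc and -0.01 in PFC without replicate 10, and 2.05% and 0.307% of genes exceeded 0.8. These genes include the further oligodendrocyte genes and the members, and each member is part of that mean. With replicate 10 kept, the PFC median of the members was 0.74.

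**Figure D5:**
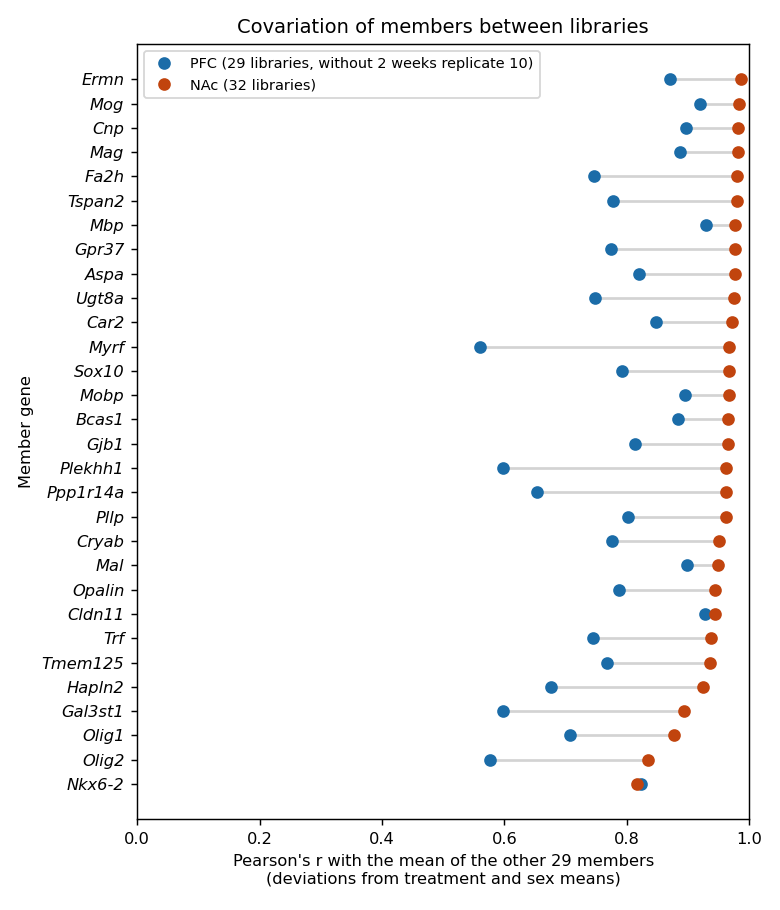
Pearson's r of each member with the mean of the other 29 members, from deviations from treatment and sex means, in NAc (32 libraries) and in PFC without 2 weeks replicate 10 (29 libraries). All 30 NAc values exceed 0.81, and PFC values spread from 0.56 to 0.93.

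The list of 52 further oligodendrocyte genes moved with the members, with r = 0.99 in NAc (Spearman's rho 0.99, r 0.99 without the 2 libraries farthest from the median) and r = 0.96 in PFC without replicate 10 (rho 0.95, r 0.94). For the genes called by stage, PFC was again taken without replicate 10. Galc had r = 0.22 in NAc and 0.35 in PFC, and Sox8 0.04 in NAc and 0.71 in PFC. Lgi3 had r = 0.87 in NAc and 0.305 in PFC. The 8 precursor markers other than Olig2 and Sox10 had r = 0.59 in NAc and 0.23 in PFC, or 0.83 in PFC with replicate 10 kept. Astrocyte markers had r = 0.55 in NAc (rho 0.61, r 0.64 without the 2 farthest libraries) and 0.28 in PFC. The neuronal lists differed by region. In NAc the striatal neuron markers ran the other way (r = -0.58, rho -0.63, r -0.65 without the 2 farthest libraries). The general neuronal markers had r = -0.18 there and the cortical ones 0.14. In PFC the general neuronal markers ran the other way (r = -0.64, rho -0.54, r -0.58), as did the cortical ones (r = -0.53). The striatal ones had r = 0.11 in PFC. The log2 total count had r = -0.03 in NAc and -0.13 in PFC.

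Of 12903 genes with a symbol and outside both the members and the list of 52, ranked by the lower of their r with the member mean in PFC (all 30 libraries) and in NAc, the 10 highest were Rcbtb1, Galnt6, Pls1, Rffl, Frmd8, Itgb4, Ppfibp2, Pip4k2a, Cyp2j12 and Arsg. Galnt6, a glycosyltransferase, had r = 0.97 in NAc, and 0.91 in PFC or 0.87 without replicate 10. Without that library the PFC values of the 10 genes ran from 0.69 to 0.87. The ranking kept replicate 10, with which 11.6% of all genes exceeded r = 0.8 in PFC and the median over all genes was 0.22. Promoter and protein sequences of these mouse genes were not used here.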

How the data were processed

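RNA-seq was run on punches of mouse PFC (30 libraries) and NAc (32 libraries). The authors deposited raw read counts per gene in 1 table. The submitters' processing notes name the genome build GRCm38 and the tools FastQC, cutadapt, Trimmomatic, STAR, HISAT2 and RSEM, without roles or versions. Which tool counted reads, and whether by strand, is not given in the sources used here. Rows that name no endogenous gene (unassigned reads and 2 fluorescent reporters) stayed out of library sizes and tests: reads with no feature were a median of 5.36% in PFC and 5.47% in NAc, and reads aligned to several places 13.7% and 15.3%.

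Counts were tested with edgeR 4.0.16 (R 4.3.3, TMM scaling, robust quasi-likelihood fits, filterByExpr), separately in PFC and NAc and jointly for comparisons of regions, with a mean for each treatment and sex and contrasts averaged over sexes. The 14 comparisons were adjusted by Benjamini-Hochberg over all genes tested, with a threshold of 0.05. The fits were tested on simulated data. Levels are log2 CPM with a prior count of 2, or RPKM from the union of annotated exons. Total counts per library entered the fits through the scaling. Intervals are at 95% and rest on the spread between libraries that edgeR estimated.

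The members and lists were chosen with earlier results of these data known. All members are reported. Values in every group are given for Mbp, Mog, Cnp, Cldn11, Sox10, Olig2 and Aspa, while other members called between regions are given by region, which departs from the written rule. Of the second list, the 3 called genes of largest change in a comparison are named. Pattern neighbours are the 10 genes of highest likeness outside the members and the second list, with a mean of at least 1 log2 CPM. Alternatives were DESeq2 1.42.0, its size factors in edgeR, no filter, sex as an additive term, a replicate block, saline libraries alone and each library left out. The sources used here do not say what a library number shared by both regions marks, so the number was not taken to pair libraries. Over all genes 5 of 30 shared numbers correlated over 0.1, but 14 correlated best with their own number. Number 27 went against its sex label in both regions. These values do not show that the libraries are unpaired, and the tests between regions leave out any such pairing except in the replicate block. The rat libraries were not analysed here, and some genes are not reported here.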

Additional observations from a re-analysis of the deposited data

Results flagged for a closer look

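Values of single libraries were compared with the rest of their group, for each gene or the member mean in each group. In 35 of these 296 sets the highest or lowest value stood apart by Dixon's criterion, where chance flags about 1 set in 20. Members vary together between libraries, so these flagged values are not independent results. All values are log2 CPM. PFC 2 weeks replicate 10, the library of fewest counts, gave 16 of them, all low: the member mean at 3.85, Mag at 6.23, Cnp at 7.68, Cldn11 at 6.27, Ermn at 4.04, Mal at 6.93, Fa2h at 3.54, Nkx6-2 at 2.11, Pllp at 5.23, and Opalin, Gjb1, Myrf, Aspa, Gal3st1, Ppp1r14a and Klk6 at -3.96, which stands for 0 counts.

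NAc 2 weeks replicate 14 was low for Mog at 5.32, Aspa at 2.99, Gal3st1 at 2.60, Car2 at 6.804, Nkx6-2 at 4.01 and Tppp3 at 4.41. NAc saline replicate 4 was low for Mog at 5.89, Mag at 7.83, Cnp at 8.66, Cldn11 at 7.30 and Mal at 8.13. PFC chronic replicate 25 was high for Mag at 8.60, Ermn at 6.75 and Efnb3 at 7.77. Single values apart were Mog at 6.38 in PFC 2 weeks replicate 11, Opalin at 3.00 in PFC 24 h replicate 21, Tspan2 at 6.71 in PFC saline replicate 6, and Plekhh1 at 5.15 and Lgi3 at 7.11 in PFC saline replicate 5.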

How the results depend on the processing

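In the stage, sex and interaction comparisons 0 members were called under every setting run. Between NAc and PFC the members called went from 27 to 17 in saline libraries alone, and all genes called from 66.2% to 47% of those tested; other settings gave 25 to 29 members, and leaving out single libraries gave 26 to 28 members and 63.7% to 67.4% of genes. Without the chronic libraries numbered 27 of both regions 28 members were called. With a replicate block over shared library numbers 27 members were called between regions, and genes whose stage effect differed by region went from 0.0363% to 0.0208% (0.151% by DESeq2, 0.0353% to 0.0555% without single libraries). Of 30 shared numbers, 5 correlated over 0.1 between regions and 14 correlated best with their own number, a hint from the data and not the design; the member means of the 2 regions had r = 0.42 (rho 0.38) over these numbers. The share of all genes called moved more. With DESeq2 it was 0.974% for PFC chronic (0.417% by edgeR), 0.256% for PFC 24 h (0.0779%), 0.0668% for PFC 2 weeks (0.00557%), 2.4% for PFC 2 weeks minus chronic (0.813%), 0.267% for PFC sex by stage (0%), 3.74% for NAc chronic (1.69%), 0.908% for NAc 24 h (0.163%), 0.223% for NAc 2 weeks (0.00544%), 3.2% for NAc 2 weeks minus chronic (1.89%) and 0.522% for NAc sex by stage (0.0218%). With no filter it was 0% for PFC 2 weeks, 0.694% for NAc chronic, 0.0381% for NAc 24 h and 0.00694% for NAc sex by stage. With sex as an additive term it was 0.273% for PFC chronic, 0% for PFC 2 weeks, 0.908% for NAc chronic, 0.0816% for NAc 24 h and 0.0598% for NAc 2 weeks. In NAc, 2 settings chosen after seeing the data moved it: a striatal marker covariate gave 3.73% for chronic, 0.424% for 24 h, 0.0326% for 2 weeks, 4.43% for 2 weeks minus chronic and 0.0707% for sex by stage, and leaving out the 5 libraries of different makeup gave 0.616%, 0.0161% and 0.0482% for chronic, 24 h and sex by stage. Without single libraries it ran from 0.238% to 0.89% for PFC chronic, 0.0596% to 0.151% for PFC 24 h, 0% to 0.00559% for PFC 2 weeks, 0.572% to 2.28% for PFC 2 weeks minus chronic, 0% to 0.027% for PFC sex by stage, 0.62% (without replicate 27) to 2.98% (without replicate 25) for NAc chronic, 0.0159% to 0.245% for NAc 24 h, 0.0053% to 0.0218% for NAc 2 weeks, 1.05% to 2.16% for NAc 2 weeks minus chronic and 0% to 0.0926% for NAc sex by stage. The cause of these shifts was not tested. Of the values of members and named genes under other settings, 15304 stayed on their side of the threshold, 67 lost a call, 37 gained one and 0 reversed a call.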
